A study of Homo sapiens with 62 samples.

Results

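The long arm of chromosome 1 (1q) carries the protein-coding genes described here, each measured before and after removal of an extra copy of the arm. A gene was a member in a comparison when it was listed as protein-coding on chromosome 1, its midpoint lay past the centromere of the build its table uses, and its mean over the compared libraries was at least 1 CPM, a count scaled to the size of its library. This gave 554 members in A2058, 532 in AGS, 499 in A2780, 536 in MCF10A and 535 in MCF10A expressing hRASV12, of the 968 protein-coding 1q genes listed with GRCh38 coordinates and the 986 listed with GRCh37 coordinates for A2780. In total 659 genes were members somewhere, 657 of them were tested somewhere, and 405 were tested members in all 5 comparisons. The genes closest to the minimum in A2058 were TSACC, inside it at 1.01 CPM, and G0S2, outside it at 0.994 CPM. S100A8, RGS5 and AGT each passed the mean but failed the count filter in a comparison and were not tested there.

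Messenger RNA was sequenced from human cell lines whose extra copy of 1q had been removed by ReDACT, a group of chromosome-engineering methods, and loss clones grew from single cells. The labels call the removal versions NS, TR and CO. A2058 is a melanoma line: its 4 controls were unedited (WT) libraries, and its 4 loss libraries came from 2 CO clones. AGS is a gastric cancer line: its controls were 1 WT library and 2 clones carrying an integrated TK cassette with the gain still present (TK+), and its 5 loss libraries came from 5 clones, 4 NS and 1 CO. A2780 is an ovarian cancer line: its controls were 2 WT and 2 TK+ libraries, and its 6 loss libraries came from 3 NS clones. MCF10A is a non-tumour breast epithelial line: 2 WT libraries were set against 8 loss libraries from 4 clones, 3 TR and 1 CO. The fifth comparison had the same numbers in MCF10A cells that all expressed hRASV12 (hRas), with loss clones numbered 1 to 4 as in the cells without it. Cells had been plated 24 h before RNA extraction.

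These were 46 of the 62 libraries of the series, with 15042068 to 29312644 counts each. Libraries of 1 clone share their founding cell, and p-values measure the spread between libraries. The labels call the MCF10A replicates biological, and in the other lines part of the spread may be technical. The files hold no measurement of copy number, so the labels are the source for which libraries carry the gain. The melanoma genes SOX10 and PMEL had means of 324 and 678 CPM in A2058, EPCAM had 733 CPM in AGS, and KRT5, a basal epithelial keratin, had 4311 CPM in MCF10A. In A2780 the ovarian markers PAX8 and WT1 were near 0, at 0.145 and 0.00853 CPM. Of the gastric markers in AGS, CLDN18 was near 0, at 0.0533 CPM, and TFF1 had 9.30 CPM, against at most 0.122 in the other comparisons. The colon markers CDX2 and VIL1 had 45.0 and 265 CPM in AGS. Each library is a bulk of many cells, so fewer cells expressing a gene and less RNA per cell cannot be told apart.

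When an arm goes from 3 copies to 2, a gene whose messenger RNA tracks its copies falls to 66.7% of its former level, a log2 change of -0.585. Gene dosage works this way for many human genes, because each copy is transcribed with little regard to the others. Other genes are held near their set level by feedback, by limiting transcription factors or by RNA turnover, and such genes are called dosage-compensated or buffered. Gain of 1q is a frequent arm gain in human tumours, and the arm carries MDM4, an inhibitor of p53, and MCL1, an inhibitor of apoptosis. Here a log2 change from -0.88 to -0.29 is called near copy number, from -0.29 to 0.29 buffered, below -0.88 steeper, and above 0.29 against copy number. A gene is called lower or higher when edgeR's quasi-likelihood test, adjusted over all genes tested by Benjamini-Hochberg, gave p under 0.05.

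Promoter sequences are shown for members that differ in how they moved: CEP350 and PRRC2C, which stayed near copy number in every comparison, S100A11 and IER5, which are the 2 genes in the buffered band in every comparison, and PTGS2, which rose in A2058. Each is the RefSeq stretch from 250 bases before to 50 after the gene's start in GRCh38.p14, read on the gene's own strand, with capitals marking a match to 1 of the 5 motifs described later. The CEP350 stretch is chr1:179954560-179954859 (plus strand), PRRC2C is chr1:171485280-171485579 (plus), S100A11 is chr1:152036955-152037254 (minus), IER5 is chr1:181088450-181088749 (plus) and PTGS2 is chr1:186680374-186680673 (minus).
CEP350: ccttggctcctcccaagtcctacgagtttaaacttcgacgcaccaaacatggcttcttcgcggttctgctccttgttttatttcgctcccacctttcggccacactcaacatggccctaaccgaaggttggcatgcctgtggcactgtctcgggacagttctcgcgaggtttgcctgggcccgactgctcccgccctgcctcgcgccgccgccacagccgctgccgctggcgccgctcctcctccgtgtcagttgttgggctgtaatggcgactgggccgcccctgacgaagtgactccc
PRRC2C: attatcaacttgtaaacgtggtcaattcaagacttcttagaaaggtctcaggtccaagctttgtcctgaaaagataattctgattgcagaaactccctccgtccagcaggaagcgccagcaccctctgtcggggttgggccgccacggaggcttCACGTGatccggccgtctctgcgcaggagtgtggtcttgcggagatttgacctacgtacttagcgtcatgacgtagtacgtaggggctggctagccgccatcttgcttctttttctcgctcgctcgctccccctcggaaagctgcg
S100A11: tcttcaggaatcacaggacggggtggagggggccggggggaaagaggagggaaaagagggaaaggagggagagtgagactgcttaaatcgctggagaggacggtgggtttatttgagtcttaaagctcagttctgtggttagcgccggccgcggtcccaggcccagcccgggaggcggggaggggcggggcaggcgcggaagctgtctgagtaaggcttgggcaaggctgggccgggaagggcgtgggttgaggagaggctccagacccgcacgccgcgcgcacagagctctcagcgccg
IER5: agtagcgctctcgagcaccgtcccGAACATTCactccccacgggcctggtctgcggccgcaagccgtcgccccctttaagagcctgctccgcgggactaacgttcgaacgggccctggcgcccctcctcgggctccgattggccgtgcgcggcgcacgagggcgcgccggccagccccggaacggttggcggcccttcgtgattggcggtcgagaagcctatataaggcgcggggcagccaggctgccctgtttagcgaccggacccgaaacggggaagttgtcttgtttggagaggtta
PTGS2: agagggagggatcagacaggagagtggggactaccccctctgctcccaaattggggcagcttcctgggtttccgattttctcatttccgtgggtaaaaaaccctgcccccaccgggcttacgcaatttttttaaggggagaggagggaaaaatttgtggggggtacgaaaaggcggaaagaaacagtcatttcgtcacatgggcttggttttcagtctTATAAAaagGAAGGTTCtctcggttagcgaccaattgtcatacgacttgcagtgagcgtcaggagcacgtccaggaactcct

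Members of 1q were lower in the loss clones of all 5 comparisons, and their medians lay close to or somewhat above the change expected from copies. The median log2 change was -0.46 in A2058, -0.54 in AGS, -0.47 in A2780, -0.52 in MCF10A and -0.42 in MCF10A hRas, which are 72.9%, 68.9%, 72.4%, 69.9% and 74.6% of the control level. Taken library by library, the median over members was between -0.468 and -0.429 in the A2058 loss libraries, -0.571 and -0.530 in AGS, -0.581 and -0.357 in A2780, -0.581 and -0.482 in MCF10A, and -0.505 and -0.299 in MCF10A hRas. The control libraries all lay between -0.019 and 0.014, so no loss library overlapped them. Autosomal protein-coding genes outside 1q with the same minimum had medians from 0.01 to 0.03.

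**Figure D1:**
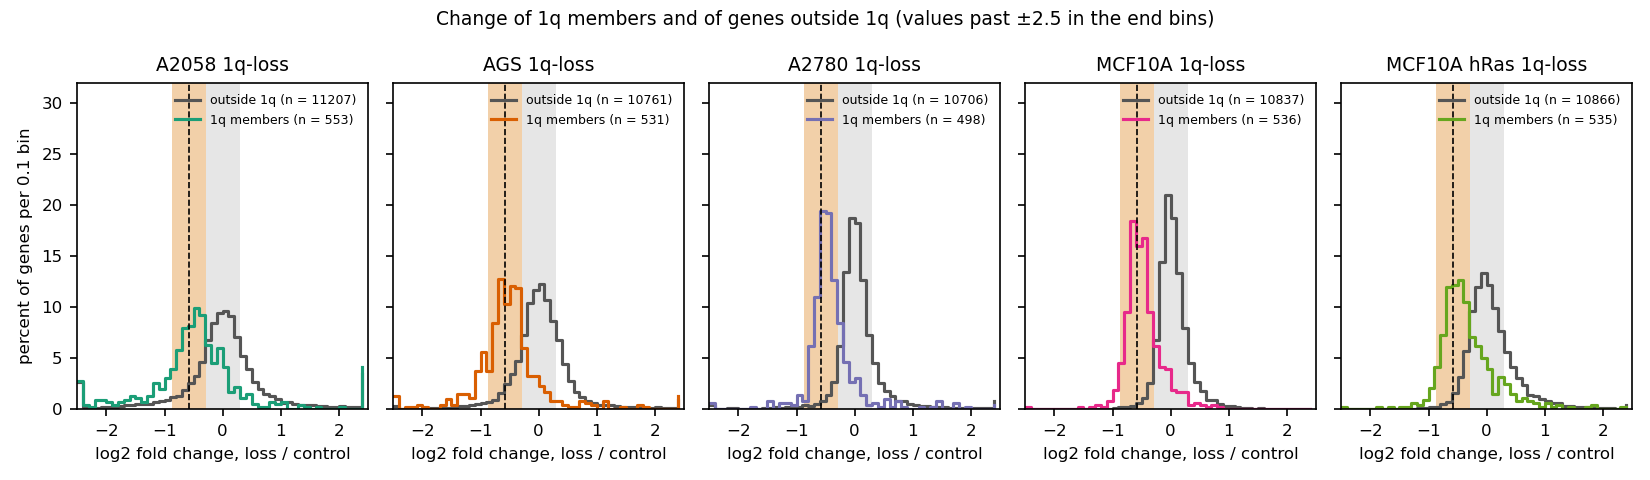
Share of genes (percent, y axis) per bin of log2 fold change between loss and control libraries (x axis), for 1q members (coloured) and autosomal protein-coding genes outside 1q (grey). The dashed line is the change from 3 to 2 copies, the orange area the near copy number band and the grey area the buffered band. The 1q curves sit left of the others in all 5 panels and are broadest in A2058, where the quartiles are -0.78 and -0.12.

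In A2058, 362 of 553 tested members were called lower and 56 higher, where 24.3% and 25.3% of all genes tested were called in those directions. In AGS 204 of 531 were called lower and 8 higher (backgrounds 4.17% and 3.38%), and in A2780 297 of 498 lower and 11 higher (5.88% and 5.95%). In MCF10A 244 of 536 were called lower against a background of 1.74%, and in MCF10A hRas 25 of 535 against 0.189%. By edgeR 0 members were called higher in MCF10A and in MCF10A hRas, where 0.3% and 0.0252% of all genes were, and DESeq2 called 0 and 1. At an unadjusted p under 0.05, edgeR had 378 MCF10A members lower and 1 higher (5.74% and 6.05% of all genes tested), and 283 MCF10A hRas members lower and 9 higher (6.47% and 7.8%).

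Several of these counts depend on few control libraries. The AGS count was 47 without the WT library, 88 without TK+ clone 1 and 40 without TK+ clone 2. The MCF10A count was 13 without WT replicate 1 and 55 without WT replicate 2. The MCF10A hRas count was 0 without either WT library, between 3 and 11 without any 1 library of clone 1, 2 or 4, and 17 and 8 without replicates 1 and 2 of clone 3. DESeq2 called 143 MCF10A hRas members lower. The A2780 count was 149 with the TK+ libraries alone as controls. Calls of single genes depended on them too: of the calls of named genes, 46 of 53 held in every alternative in A2058, 25 of 47 in A2780, 4 of 32 in AGS, 0 of 45 in MCF10A and 0 of 6 in MCF10A hRas. The medians moved far less than these counts, and the size of the change, rather than the call, is used for the bands that follow.

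Of the tested members, 249 in A2058, 311 in AGS, 351 in A2780, 400 in MCF10A and 317 in MCF10A hRas were near copy number, whereas 14.9%, 14.1%, 6.25%, 5.08% and 12.2% of genes outside 1q lay in that band. The buffered band held 136, 90, 97, 102 and 136 members in the same order, against 49.6%, 60%, 75.8%, 81.5% and 63.7% of genes outside 1q. Steeper changes were seen for 110, 98, 23, 22 and 30 members (8.99%, 3.37%, 1.96%, 0.397% and 0.552% outside), and changes against copy number for 58, 32, 27, 12 and 52 (26.5%, 22.6%, 16%, 13% and 23.5% outside). Pooled over the 5 comparisons, 61.36% of 2653 member values were near copy number, 21.15% buffered, 10.67% steeper and 6.82% against. Genes outside 1q had 10.55%, 65.98%, 3.1% and 20.37% of 54377 values in these bands.

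A description that needs no band is overlap between libraries. The highest loss library was still below the lowest control for 350 members in A2058 (63.3%), 309 in AGS (58.2%), 300 in A2780 (60.2%), 359 in MCF10A (67.0%) and 294 in MCF10A hRas (55.0%). The same was true of 23.4%, 9.21%, 5.26%, 4.75% and 9.41% of the genes outside 1q.

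The drop was not even along the arm. Between the centromere and 150 Mb, 36 to 39 members were tested, and in A2058 their median change was -0.60 with 21 of 38 called lower. In MCF10A the same stretch had a median of -0.01, with 30 of 39 members buffered and 0 called lower, while the 497 members past 150 Mb had a median of -0.53. In MCF10A hRas the stretch had a median of 0.16, with 22 buffered and 13 against, and the rest of the arm -0.45. No member of this stretch was near copy number in all 5 comparisons, although the 405 shared genes include 16 of them.

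The clones of MCF10A differed in this stretch. Their medians up to 150 Mb were 0.00 in clone 1, -0.50 in clone 2, 0.05 in clone 3 and 0.15 in clone 4, while past 150 Mb all 4 lay between -0.57 and -0.51. With hRASV12 they were 0.06, -0.20, 0.17 and 0.44, against -0.49, -0.53, -0.32 and -0.52 past 150 Mb. In AGS the CO clone, clone 11, had -0.05 up to 150 Mb and -0.56 beyond it, and the 4 NS clones had -0.66, -0.37, -0.46 and -0.41 up to 150 Mb. A2058 clones, also CO, had -0.59 and -0.57 there. The 3 A2780 clones had -0.32, -0.21 and -0.24 there and -0.59, -0.48 and -0.37 beyond. Whether the members of this stretch are still at the higher copy number in those clones was not tested, and members named below that lie in this stretch are marked as such.

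**Figure D2:**
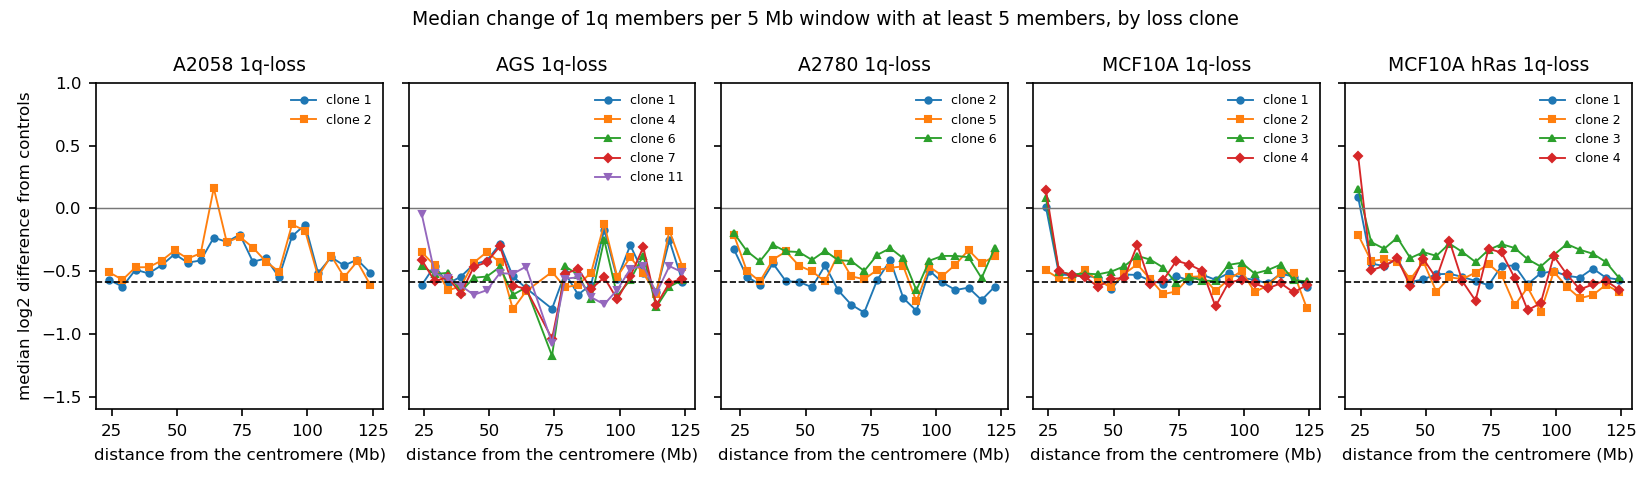
Median log2 difference of 1q members from the control libraries (y axis) in windows of 5 Mb against distance from the centromere (Mb, x axis), 1 line per loss clone, windows with at least 5 members. The dashed line is the change from 3 to 2 copies. The first window stands near or above 0 in MCF10A clones 1, 3 and 4, in MCF10A hRas clones 1, 3 and 4 (0.09, 0.16 and 0.42) and in AGS clone 11. The later windows of these clones lie below 0, from -1.07 in AGS clone 11 to -0.23 in MCF10A hRas clone 3, whose windows all lie above the dashed line.

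Over the 405 genes tested everywhere, 299 were below their controls in all 5 comparisons, whereas 5.01% of the 8875 comparable genes outside 1q were. In all 5 comparisons 114 genes (28.1%) were near copy number, a further 108 were so in 4, and 18 were so in none. Outside 1q, 2 of 8875 genes (0.0225%) lay in that band in all 5. Called lower in all 5 were 10 genes, and 92 in 4. Outside 1q none was called lower in all 5. A joint fit of all 46 libraries gave the mean of the 5 loss effects, with a median over the 405 genes of -0.50 and a median standard error (SE) of 0.060. By this mean 355 genes were called lower and 4 higher (ATF3, HIST2H2BE, PTGS2 and SH2D2A), where 6.82% of all genes tested were called lower and 10.8% higher. The mean of ATF3 takes in A2780 and MCF10A hRas, where it is a member only through loss libraries, so nothing is read from its call. PTGS2 and SH2D2A were each called higher in A2058 alone.

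The 95% intervals of that mean place each gene beside 0 and the copy-number value. The fit took libraries of 1 clone as separate, so the intervals may be too narrow. The median of the mean over members, -0.50, itself lies between the 2 values. An interval between them therefore does not by itself mark a gene as buffered. For 208 genes the interval held the copy-number value and not 0, for 31 it held 0 and not the copy-number value, and for 134 it lay wholly between them. For 25 genes the interval lay below the copy-number value, for 5 above 0, and for 2 it held both values. The 134 genes lying between include 6 up to 150 Mb, and the 31 with 0 in the interval include 5.

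The genes closest to the copy-number value in every comparison were GLRX2, CEP350, PRRC2C, IARS2, MTX1, NVL, ZNF687 and SNX27. GLRX2, a mitochondrial glutaredoxin (ENSG00000023572, chr1:193090866-193106114 in GRCh38), had 47.9, 49.4, 51.3 and 51.4 CPM in the A2058 controls and 30.5, 33.0, 34.3 and 34.6 CPM in the loss libraries. In AGS it had 22.7, 26.6 and 30.9 CPM against 15.9, 17.4, 19.2, 19.9 and 22.3 CPM. The groups did not overlap in any of the 5 comparisons. Its log2 changes were -0.60 ± 0.07 (SE) in A2058, -0.50 ± 0.15 in AGS, -0.63 ± 0.11 in A2780, -0.61 ± 0.11 in MCF10A and -0.56 ± 0.11 in MCF10A hRas. The AGS and MCF10A hRas values did not pass the test, with edgeR adjusted p of 0.0761 and 0.0811. GLRX2 overlaps TROVE2 on the opposite strand, and whether counting used the strand is not given in the sources used here, so reads of the pair may be mixed.

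CEP350 encodes a large centrosomal protein (ENSG00000135837, chr1:179954738-180114880). It had 116 ± 19.2 CPM (SD, n = 4) in the A2058 controls and 75.4 ± 9.20 (n = 4) after loss, with ranges of 90.2 to 137 and 66.1 to 87.3. In AGS it had 103 ± 5.95 (n = 3) and 64.1 ± 5.06 CPM (n = 5), and in A2780 138 ± 10.99 (n = 4) against a lowest, median and highest value of 69.5, 85.6 and 98.6 CPM. The MCF10A controls had 79.1 and 93.9 CPM against 49.5, 56.6 and 61.5 (lowest, median, highest), and those with hRASV12 had 84.1 and 85.8 against 48.8, 55.5 and 67.1. No loss library reached its lowest control. The log2 change was -0.62, -0.68, -0.69, -0.62 and -0.60 in the order given above, called in all but MCF10A hRas, where the edgeR adjusted p was 0.0675. The joint mean was -0.64 ± 0.05 (edgeR adjusted p = 2.4e-13). CEP350 was picked by these same values, so its mean is no test of its place near copy number.

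PRRC2C, which encodes a large proline-rich RNA-associated protein, fell in all 5 comparisons, by 0.49, 0.69, 0.63, 0.58 and 0.65 on the log2 scale. IARS2 is the mitochondrial isoleucyl-tRNA synthetase, and its joint mean was -0.61 with an interval from -0.70 to -0.51. That this interval lies near the copy-number value follows from the choice of IARS2 by the same values. SNX27, a sorting nexin of endosomal recycling, had log2 changes from -0.65 to -0.46. NVL, an AAA ATPase of ribosome assembly, had -0.68 to -0.46, and ZNF687, a zinc finger protein, had -0.65 to -0.46. MTX1, a mitochondrial outer-membrane import protein, had -0.59 to -0.47, called in A2058 and A2780, and overlaps GBAP1 and THBS3.

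The 10 genes called lower in all 5 comparisons were ADAR, AHCTF1, ARHGEF11, HEATR1, POGK, PRRC2C, RBBP5, TOMM20, UBQLN4 and ZNF672. ADAR, the enzyme that edits adenosine to inosine in RNA, fell by 0.37 in A2058 and by 1.25 in AGS on the log2 scale. HEATR1, a factor of ribosomal RNA transcription, fell by 0.24 in A2058 and by 0.90 in MCF10A hRas. TOMM20, a receptor of mitochondrial protein import, fell by 0.64, 0.63, 0.45, 0.72 and 0.74, and its calls were lost in 6 of 13 other settings in AGS and 15 of 20 in MCF10A hRas. RBBP5, a core subunit of histone H3 lysine methyltransferase complexes, had a joint mean of -0.54. This list was limited by MCF10A hRas: without that comparison 91 genes were called lower in all the others, and with DESeq2 62 were in all 5. Leaving out 1 library of MCF10A hRas gave 0 to 7 genes. It held 2 without AGS TK+ clone 2, 4 without AGS WT, 3 without MCF10A WT replicate 1 and 6 without MCF10A WT replicate 2.

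At the level of clones the followers held more loosely. Of the 405 genes, 214 (52.8%) were below the controls in each of the 18 clones, against 36 of the 8875 genes outside 1q (0.406%). In the near copy number band in each of the 18 clones were 10 genes, CEP350, COP1, DEDD, DENND4B, GON4L, PRRC2C, SNX27, UFC1, ZNF496 and ZNF687. A narrower band gave 38 genes near copy number in all 5 comparisons instead of 114.

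MDM4, UCK2 and MCL1 are 1q genes with known roles in tumour cells. MDM4, which binds and inhibits p53 (ENSG00000198625, chr1:204516379-204558120), had 30.1 ± 1.07 CPM (SD, n = 4) in A2058 controls and 19.1 ± 0.84 (n = 4) after loss. It had 84.6, 98.7 and 101.01 CPM in AGS controls against 42.7 to 64.1 in the 5 clones, and 100.9 to 117 in A2780 controls against 55.7, 72.2 and 90.2 (lowest, median, highest). In MCF10A it had 28.8 and 29.3 CPM against 13.6, 18.5 and 20.7. The groups did not overlap in any comparison, and its log2 changes were -0.65, -0.74, -0.55, -0.71 and -0.67, called in all but MCF10A hRas (edgeR adjusted p = 0.0645). Its calls were lost in 5 of 21 other settings in A2780, 4 of 13 in AGS and 2 of 20 in MCF10A. The adjusted p rose up to 0.121 in A2780 and 0.0928 in AGS.

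UCK2, the kinase that phosphorylates uridine and cytidine and activates some nucleoside drugs, fell by 0.46, 0.46, 0.66 and 0.70 in A2058, AGS, A2780 and MCF10A on the log2 scale. It had -0.75 in MCF10A hRas without passing the test (edgeR adjusted p = 0.167). Its AGS call was lost in 7 of 13 other settings, with adjusted p up to 0.116. It had 126 ± 5.43 CPM (SD, n = 4) against 91.6 ± 1.5 (n = 4) in A2058, and its groups did not overlap in any comparison. It overlaps TMCO1. MCL1, which keeps mitochondria-dependent apoptosis in check, changed less. It fell by 0.37, 0.50, 0.24 and 0.46 in A2058, AGS, A2780 and MCF10A and had -0.26 in MCF10A hRas, where its 8 loss libraries ran from 539 to 966 CPM around controls of 813 and 830. The interval of its joint mean, from -0.47 to -0.24, excludes both 0 and the copy-number value. In AGS its call was lost in 9 of 13 other settings, with adjusted p up to 0.142.

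**Figure D3:**
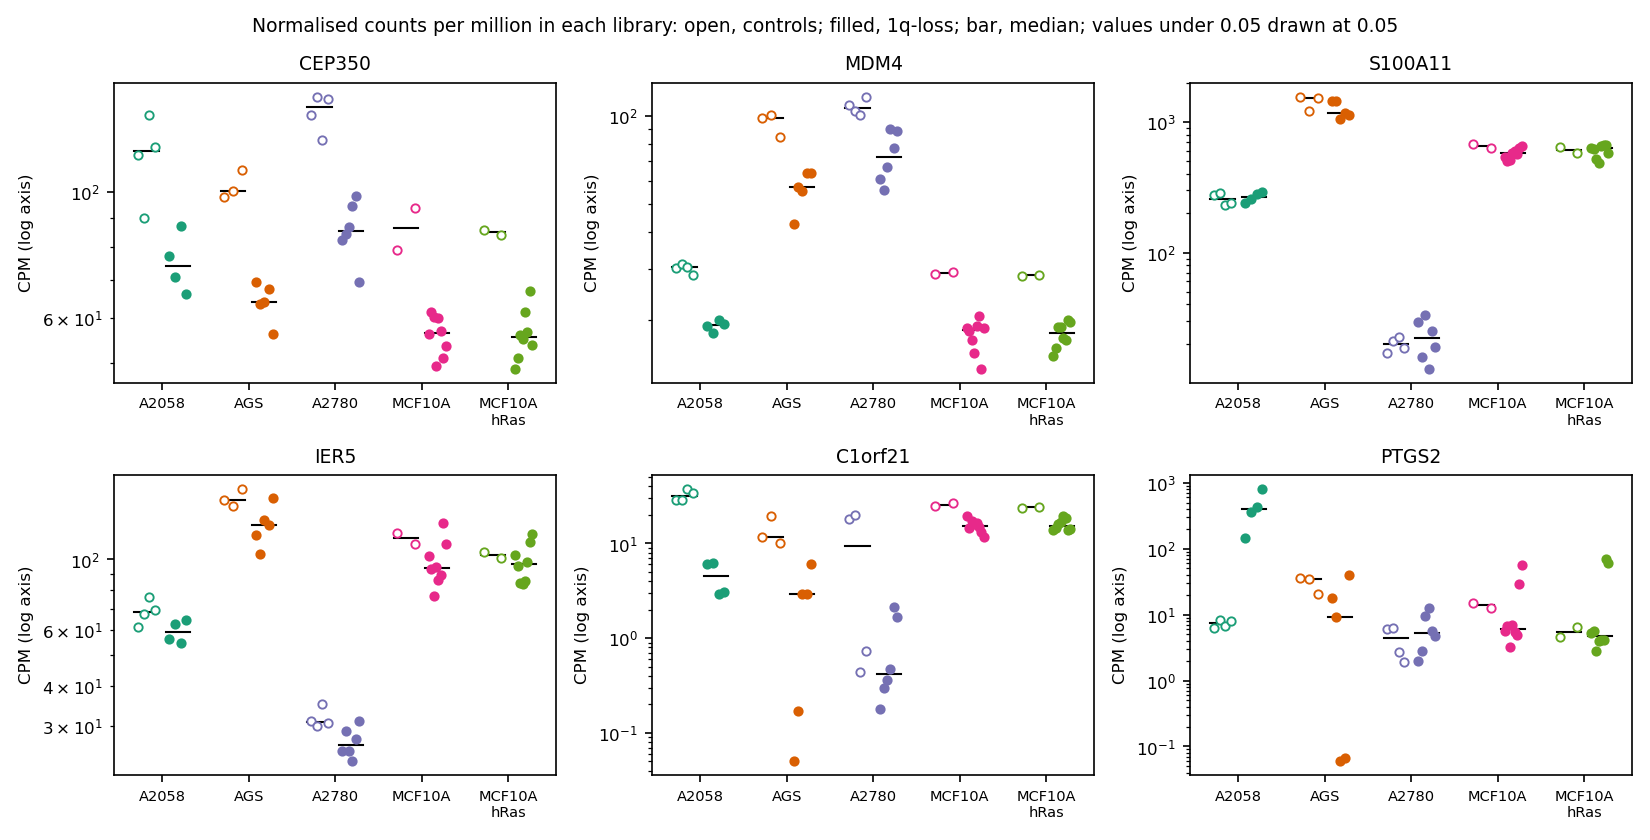
Normalised CPM (log axis) of 6 members in each library, by comparison (x axis). Open circles are controls, filled circles 1q-loss libraries, bars the median, and values under 0.05 are drawn at 0.05. CEP350 and MDM4 separate in all 5 comparisons, S100A11 and IER5 overlap in all 5, C1orf21 controls of A2780 fall into a high and a low pair, and PTGS2 is high in A2058 loss libraries.

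Only 2 of the 405 genes were in the buffered band in all 5 comparisons, S100A11 and IER5, while 27% of the genes outside 1q were. S100A11 encodes a calcium-binding EF-hand protein (ENSG00000163191, chr1:152032506-152047907). Its values were 230, 241, 276 and 286 CPM in A2058 controls and 242, 256, 279 and 292 CPM after loss. In AGS they were 1528 in WT and 1573 and 1226 in TK+, against 1464, 1465, 1059, 1178 and 1139 in clones 1, 4, 6, 7 and 11. In A2780 the gene was far lower, 17.0 to 22.5 CPM against 12.7, 22.0 and 33.0 (lowest, median, highest). In MCF10A it had 638 and 682 CPM against 503, 580 and 655, and with hRASV12 583 and 643 against 483, 631 and 669. The groups overlapped in every comparison.

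The log2 changes of S100A11 were 0.05, -0.19, 0.19, -0.19 and -0.02, with edgeR adjusted p from 0.478 to 0.956. A p of this size does not show that the gene is unchanged. The 95% intervals were -0.15 to 0.24 in A2058, -0.55 to 0.16 in AGS, -0.34 to 0.73 in A2780, -0.41 to 0.02 in MCF10A and -0.31 to 0.27 in MCF10A hRas. The joint mean was -0.03 with an interval from -0.19 to 0.13. The gene is described here because these same 5 values lay in the buffered band, so the intervals are centred near 0 by that choice and are no test of it. It left the band without AGS TK+ clone 2 or without A2780 loss clone 5 replicate 2. By clone, S100A11 was in the buffered band in 15 of 18 and below its controls in 9 of 18.

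IER5 is an immediate early gene induced by growth factors and stress (ENSG00000162783, chr1:181088712-181092899). It had 61.2 to 76.2 CPM in A2058 controls and 54.6 to 64.3 after loss, and 147 to 167 in AGS against 104 to 156. In A2780 it had 29.9 to 35.1 against 23.2, 26.1 and 31.1 (lowest, median, highest), in MCF10A 112 and 121 against 76.9, 94.2 and 130, and with hRASV12 101.2 and 106 against 83.6, 96.7 and 120. The groups overlapped in all 5 comparisons, yet every mean was lower after loss. Its log2 changes were -0.21, -0.28, -0.24, -0.25 and -0.08, none of them called. The joint mean of -0.21 ± 0.06 was called (edgeR adjusted p = 0.00694), and its interval, from -0.32 to -0.09, excludes 0. That it lies above the copy-number value is fixed by the choice of IER5 from the same values. Being in the buffered band in all 5 comparisons therefore does not mean that IER5 was unchanged, and 15 of 18 clones had it below the controls.

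Membership of this pair was fragile. No gene was in the buffered band in all 18 clones. With narrower bands, or without AGS TK+ clone 2, no gene was buffered in all 5 comparisons. S100A11 alone was without AGS TK+ clone 1, AGS loss clone 6, AGS loss clone 11, MCF10A WT replicate 2 or MCF10A loss clone 4 replicate 1, and IER5 alone without A2780 loss clone 5 replicate 2. Without AGS WT, KIFAP3 joined the pair, and without A2780 TK+ replicate 2, RASAL2 did.

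A further 6 genes were buffered in 4 of 5 comparisons, among them CSRP1, KIFAP3, POLR3C, RASAL2 and SHC1. Each left the band once. CSRP1, a LIM-domain protein of the actin cytoskeleton, fell by 0.51 in MCF10A on the log2 scale. SHC1, an adaptor of receptor tyrosine kinases, fell by 0.93 in AGS, and RASAL2, a GTPase-activating protein for Ras, fell by 0.35 in A2780. POLR3C of RNA polymerase III, in the stretch up to 150 Mb, fell by 0.83 in A2058, where that stretch fell with the arm. KIFAP3, a subunit of the kinesin-2 motor, had -0.32 in AGS without passing the test. In at least 3 comparisons 64 genes were buffered or against, 11 of them up to 150 Mb and 53 past it. In all 5 comparisons 4 genes were: HIST2H2BE in the stretch up to 150 Mb, and ATF3, IER5 and S100A11 past it. For ATF3 this count includes A2780 and MCF10A hRas, where every control was below 1 CPM, so nothing is read from its place here.

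Steeper changes were seen in 1 comparison for 112 of the 405 genes and in 2 for 18, where 586 and 39 of the 8875 genes outside 1q had them. No gene was steeper than copy number in 4 or 5 comparisons, and 6 were in 3 (2 genes outside 1q): ATP2B4, C1orf21, CRABP2, TRAF5, YOD1 and ZNF695. C1orf21, a gene of poorly known function (ENSG00000116667, chr1:184387058-184629020), had 28.7 to 37.7 CPM in A2058 controls, and its loss libraries had 6.08 and 6.25 in clone 1 and 2.96 and 3.09 in clone 2. In AGS it had 10.03 to 19.7 CPM in controls and 0, 0.172, 2.91, 2.91 and 6.05 in clones 1, 4, 6, 7 and 11. In A2780 its WT libraries had 18.0 and 19.8 CPM, but its TK+ libraries, which keep the gain, had 0.440 and 0.736, inside the loss range of 0.177 to 2.14. The log2 change was -2.82 ± 0.25 in A2058 (edgeR adjusted p = 6.7e-06), -2.52 ± 0.92 in AGS (0.124) and -3.49 ± 1.01 in A2780 (0.0472). The A2780 call was lost in 12 of 21 other settings, and against the TK+ libraries alone the value was 0.55. With a loss mean of 0.855 CPM, C1orf21 is a member in A2780 only through its WT libraries, so nothing is read from its steeper value there. In MCF10A the gene fell by 0.74, and with hRASV12 it had -0.59 ± 0.14 (edgeR adjusted p = 0.147).

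ENAH, a regulator of actin filaments at the leading edge of cells, had 311 ± 11.7 CPM (SD, n = 4) in A2058 controls and 116 ± 9.08 (n = 4) after loss. It fell by 1.42, 0.94, 0.45 and 0.86 on the log2 scale in A2058, AGS, A2780 and MCF10A and had -0.76 in MCF10A hRas. The A2780 call was lost in 15 of 21 other settings. FLVCR1, a transporter of choline and haem, fell by 0.79, 0.72, 0.56 and 1.05 in those 4 comparisons, and CCSAP, a protein of centrioles and the spindle, by 1.51, 0.59, 0.76 and 0.71. S100A1, another EF-hand protein, had 20.8 to 35.0 CPM in A2058 controls and 1.66 to 3.61 after loss, a log2 change of -3.62, and was below 3 CPM in every library of the other 4 comparisons. TRAF5, a signalling adaptor of TNF receptors, fell by 1.11, 0.68, 0.94 and 0.90 in A2058, AGS, MCF10A and MCF10A hRas and had -0.11 in A2780.

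**Figure D4:**
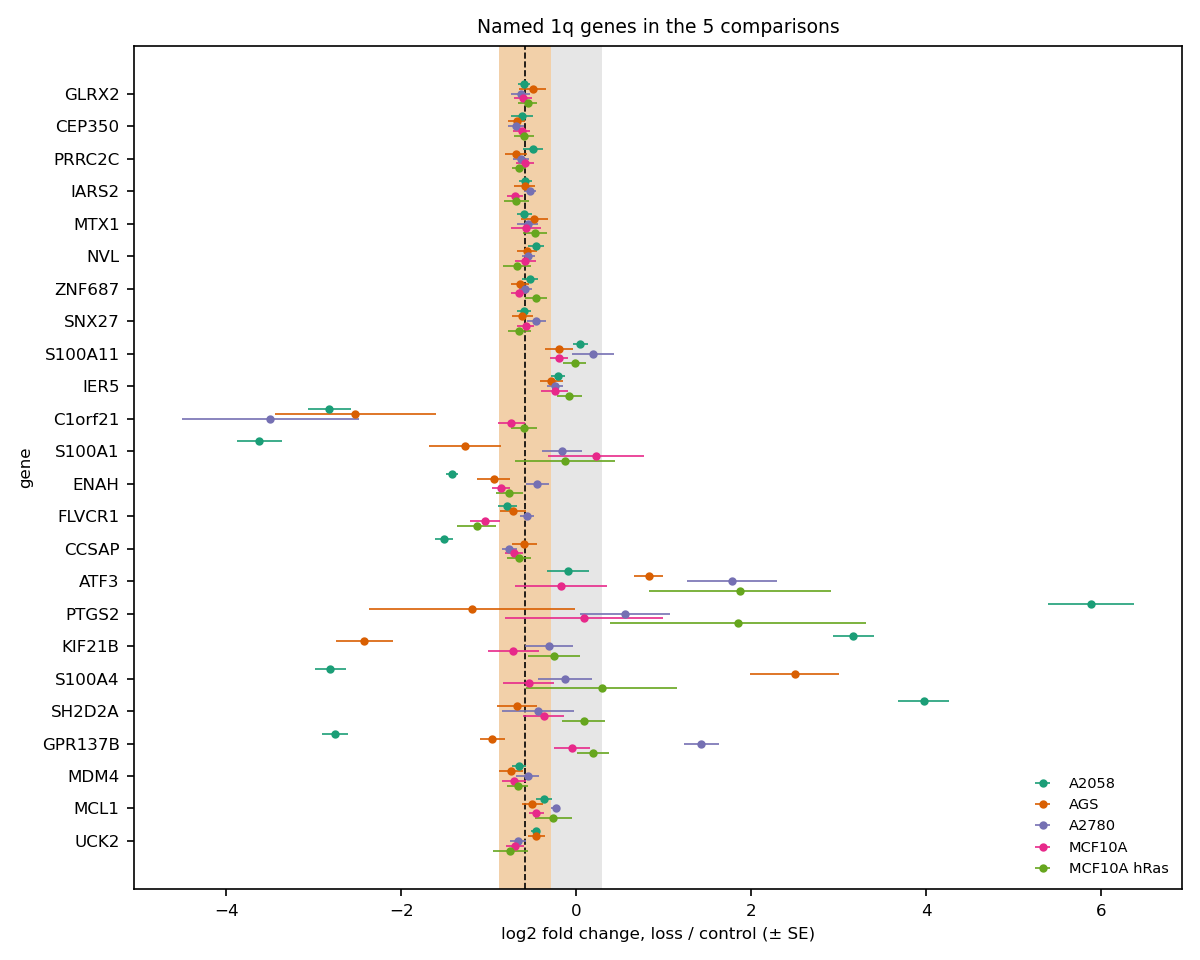
Log2 fold change between loss and control libraries (x axis, bars ± SE) of 24 named members (y axis) in the 5 comparisons. Orange area, near copy number; grey area, buffered; dashed line, the change from 3 to 2 copies. The 8 genes at the top lie in the orange area in all comparisons, S100A11 and IER5 in the grey area, and PTGS2, KIF21B, S100A4, SH2D2A and GPR137B spread to both sides of 0.

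Values against copy number were found in 3 comparisons for ATF3, HIST2H2BE (up to 150 Mb) and PTGS2, and in 4 or 5 for none, where 0.496% of genes outside 1q had 5. ATF3 is a stress-induced transcription factor (ENSG00000162772, chr1:212565334-212620777). In AGS it had 128, 129 and 133 CPM in controls and 194, 200, 214, 227 and 321 after loss, with no overlap, and rose by a log2 change of 0.83 ± 0.17 (edgeR adjusted p = 0.0248). Its AGS call was lost in 4 of 13 other settings, with adjusted p up to 0.112. In A2780 it was near 1 CPM (controls 0.230 to 0.723, loss 0.574 to 2.83) and rose by 1.78, a call lost in 15 of 21 other settings. In MCF10A hRas clones 2 and 4 had 5.02 to 6.19 CPM, clones 1 and 3 had 0.631 to 1.11, and the controls 0.86 and 0.87, a log2 change of 1.87 that was not called. In A2780 and in MCF10A hRas every control was thus below 1 CPM, and ATF3 is a member there only through loss libraries. Neither value supports its place among the genes against copy number, for which AGS alone is left.

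HIST2H2BE, a histone H2B gene, lies in the stretch up to 150 Mb, where several clones showed no drop. It rose in A2058, with 4.22, 4.24, 4.54 and 5.78 CPM in controls and 7.79, 9.18, 9.45 and 10.4 after loss, a log2 change of 0.97. Its other 4 values were 0.05, 0.12, 0.77 and 1.77, none called, and in MCF10A hRas clones 2 and 4 again stood highest, at 10.4 to 14.6 CPM, above the controls at 2.29 and 2.59.

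PTGS2 encodes cyclooxygenase-2, the inducible enzyme of prostaglandin synthesis (ENSG00000073756, chr1:186671791-186680427). It had 6.24 to 8.16 CPM in A2058 controls and 143, 354, 434 and 806 after loss, a log2 change of 5.89 ± 0.49 (edgeR adjusted p = 5.0e-06). In AGS the controls had 20.3 to 36.1 CPM, and clones 6 and 7 had 0.0594 and 0.0662, clone 4 had 9.32, clone 1 had 17.7 and clone 11 had 39.7. In MCF10A clones 1 to 3 had 3.17 to 7.07 CPM and clone 4 had 28.7 and 56.6, around controls of 12.8 and 14.8. Clone 4 with hRASV12 was also high, at 61.2 and 69.0 CPM, and the other hRas clones had 2.80 to 5.67. The MCF10A hRas value of 1.85 thus rests on clone 4, and the loss median, 4.76 CPM, lay below the control mean of 5.44. In A2780 PTGS2 had 1.93 to 6.17 CPM in controls and 1.99 to 12.6 after loss, a log2 change of 0.56. Of its 3 values against copy number only that of A2058 was called. Outside A2058 no change of PTGS2 was called, and in MCF10A its value turned from 0.09 to -1.34 without clone 4, where it was called lower (edgeR adjusted p = 0.00693).

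The 5 loss effects differed between comparisons for 139 of the 405 genes (34.3%) by a test of the difference in the joint fit. The share was 37.2% outside 1q and 27.6% over all genes tested. KIF21B, a kinesin motor, had 4.82 to 8.85 CPM in A2058 controls and 41.0 to 74.0 after loss, but 130 to 144 in AGS controls and 13.8 to 41.0 after loss. It rose by 3.17 in A2058 and fell by 2.42 in AGS, and the difference between the effects had an edgeR adjusted p of 1.8e-11. GPR137B, a lysosomal membrane protein, had 30.7 to 43.3 CPM in A2058 controls against 4.63 to 6.60, a fall of 2.76, and rose by 1.43 in A2780 from 1.58 to 2.53 CPM to 4.56 to 8.08. Its difference had an adjusted p of 2.7e-14 in the same test, and it overlaps ERO1B.

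S100A4, an EF-hand protein linked with cell motility, had 32.3 to 54.1 CPM in A2058 controls and 5.12 to 6.30 after loss, while AGS controls had 13.01 to 16.6, clones 1, 4, 6 and 7 had 76.9 to 127, and clone 11 had 18.7. It fell by 2.81 in A2058 and rose by 2.5 in AGS (edgeR adjusted p of the difference 4.5e-05), and the AGS call was lost in 4 of 13 other settings. It overlaps S100A3 on the same strand. SH2D2A, a T-cell adaptor gene, had 1.62 to 5.0 CPM in A2058 controls and 39.4 to 67.4 after loss, and is among the named genes that overlap another expressed gene, so its counts are uncertain. Its log2 changes were 3.97, -0.68, -0.44, -0.37 and 0.08, and the rise was called in A2058 alone. Across the 405 genes the log2 changes of MCF10A and MCF10A hRas had a Pearson r of 0.72, those of A2780 and MCF10A hRas 0.44 and those of A2780 and MCF10A 0.34. The pairs with A2058 or AGS lay between -0.08 and 0.18. The clones of both MCF10A comparisons carry the same numbers, and the same pair of comparisons also had r = 0.67 over genes outside 1q, where the other 2 pairs had 0.25 and 0.24.

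Genes were also described by role, with each list counted over all its members and comparisons beside the 61.36% of all member values near copy number, the 42.67% called lower and the 2.83% called higher (75 of 2653). These lists were drawn up with earlier results of these data known. For the proteasome, PSMB4 of the catalytic core and PSMD4, the ubiquitin receptor of the cap, gave 10 values, of which 10 were near copy number and 6 called lower. PSMD4 had -0.65 in A2058, -0.32 in AGS, -0.46 in A2780, -0.54 in MCF10A and -0.40 in MCF10A hRas. Of 14 values of protein-folding genes 13 were near copy number and 9 called lower. CCT3, a chaperonin subunit, had -0.49, -0.43 and -0.57 in A2058, A2780 and MCF10A, all called, and -0.16 in AGS. It overlaps TSACC.

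Ribosomal genes gave 29 values, 27 of them near copy number and 19 called lower. RPS27, a protein of the small cytosolic subunit, fell by 0.67 in A2058, 1.20 in AGS and 0.65 in MCF10A. Of 40 values of chromatin genes 35 were near copy number and 24 called lower. SETDB1, a histone H3 lysine 9 methyltransferase, had -0.57, -0.74, -0.50, -0.66 and -0.44, while KDM5B, a histone H3 lysine 4 demethylase, had -0.08 in A2058 and -0.59 in AGS. The splicing and processing list, which also holds SNAPIN, a SNARE-associated protein, had 31 of 44 values near copy number and 24 called lower: PRPF3 of the U4/U6 particle fell by 0.95 in A2058, and SF3B4 of the U2 particle, which lies up to 150 Mb, had -0.13 in MCF10A.

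Mitochondrial genes had 26 of 32 values near copy number and 18 called lower. SDHC of complex II fell by 0.69 in A2058 and had -0.28 in A2780. The gamma-secretase genes had 12 of 15 values near copy number and 9 called lower. APH1A fell by 0.50, 0.61, 0.45 and 0.46 in the 4 comparisons without hRASV12, PSEN2 fell by 1.19 in A2058, and NCSTN had 0.03 in A2058 and fell by 0.51 in AGS. NCSTN overlaps COPA.

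Mitotic genes had 29 of 35 values near copy number, 17 called lower and 1 higher, the latter KIF21B in A2058. CENPF, a kinetochore protein, fell by 0.63, 0.66, 0.69 and 0.76 in A2058, A2780, MCF10A and MCF10A hRas and had -0.16 ± 0.40 in AGS, and its calls were lost in 8 of 19 other settings in A2058 and 15 of 20 in MCF10A hRas. CKS1B, a cofactor of cyclin-dependent kinases, had -0.03 in A2058 and fell by 0.49 and 0.74 in A2780 and MCF10A, with the A2780 call lost in 12 of 21 other settings. Vesicle-transport genes had 25 of 30 values near copy number and 17 called lower. Nucleoside and metabolic enzymes had 25 of 34, 15 of the 34 called lower. The list of p53, apoptosis and kinase genes had 21 of 32 near copy number, 19 called lower and 1 higher, IKBKE in A2058, a kinase of innate immune signalling that rose by 0.69. PARP1, which senses DNA breaks, fell by 0.82, 0.65 and 0.68 in A2058, A2780 and MCF10A and had -0.17 in AGS, and ABL2, a tyrosine kinase, fell by 1.18 in A2058 and had 0.20 in AGS.

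Nuclear pore and envelope genes had 13 of 20 values near copy number and 12 called lower. LMNA, the gene of the A-type lamins, fell by 1.21 in A2058 and had -0.25, -0.20, -0.34 and -0.21 in the other comparisons, where the MCF10A value was called but lost its call in 15 of 20 other settings. Transcription factors had 22 of 39 near copy number, 22 called lower and 2 higher, both of them ATF3, in AGS and in A2780, where its controls were below the CPM minimum. ELK4, an ETS factor, had 0.06 in A2058 and fell by 0.64, 0.58, 0.61 and 0.66 in the other 4. ATF6, a sensor of endoplasmic reticulum stress, had -0.03 in A2058 and fell by 1.02 in AGS. The oxygen-sensing and stress list had 13 of 18 near copy number, 7 called lower and 1 higher. EGLN1, a prolyl hydroxylase of HIF, fell by 1.35 in A2058, and DUSP10, a phosphatase of stress kinases, rose by 1.18 in AGS.

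Of 49 values of the S100 genes of 1q21 12 were near copy number (24.5%), 22 buffered, 8 against and 7 steeper, with 6 called lower and 3 higher. The 3 were S100A4 in AGS and, in A2058, S100A3 and S100A9, a calprotectin subunit of myeloid cells. S100A9 had no count in the 4 A2058 controls and 2.04, 7.84, 61.1 and 93.8 CPM after loss, so it reached the CPM minimum there through the loss libraries alone and nothing is read from its call. The same holds for 15 of the 56 members called higher in A2058, 3 of 8 in AGS and 3 of 11 in A2780, whose controls had a mean below 1 CPM. In the other direction, 7 of 362 members called lower in A2058, 1 of 204 in AGS and 2 of 297 in A2780 had a loss mean below 1 CPM. These reached the minimum only through their controls. S100A6 had -0.04, -0.39, -0.01 and 0.40 in A2058, AGS, MCF10A and MCF10A hRas, S100A10, the partner of annexin A2, had -0.02, 0.33, -0.17 and 0.10, and S100A13 fell by 0.54 in A2058 and 0.69 in AGS. The S100 genes lie past 150 Mb. Of 13 laminin values 4 were near copy number, 4 buffered and 5 against, with 1 called lower and 1 higher, both in A2058. LAMC1, a gamma chain shared by many laminins, fell by 0.44, while LAMB3, a chain of the basement-membrane laminin-332, rose by 3.71, from 23.9 to 76.9 CPM in controls to 487 to 639 after loss. In AGS LAMB3 had -0.58 without passing the test. The PYHIN list had 4 values, all of IFI16, an interferon-inducible DNA sensor, with 2 near copy number and 2 steeper. IFI16 fell by 0.92 in A2058 and 3.41 in AGS and had -0.64 in MCF10A and -0.76 in MCF10A hRas, and its AGS call was lost in 5 of 13 other settings.

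**Figure D5:**
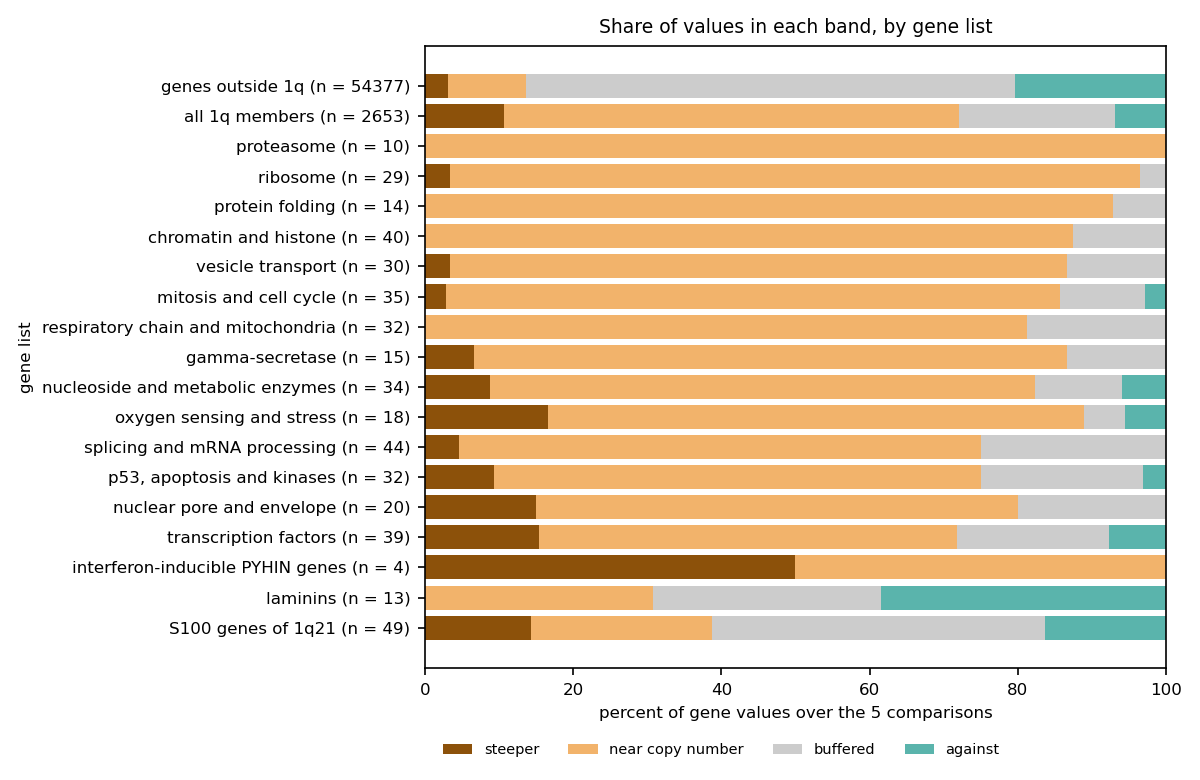
Percent of gene values over the 5 comparisons (x axis) in each band, by gene list (y axis), with all 1q members and genes outside 1q above them. The n counts values, not genes. The proteasome has 10 of 10 values near copy number, and the S100 genes 12 of 49.

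Expression of hRASV12 in MCF10A was set against its absence by an interaction term over the 20 MCF10A libraries. The median of the difference between the loss effects (with minus without hRASV12) was 0.074 over 405 members, and edgeR called 0 of them, with 6 at an unadjusted p under 0.05. DESeq2 also called 0, with 7 at an unadjusted p under 0.05, and over all 16492 genes edgeR called 0 and 2.22% had an unadjusted p under 0.05. The lower count of called members with hRASV12 is thus not shown to be a smaller effect of the loss.

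Clones in which other arms had been targeted served as a background. In A2058 clones without the extra 7p, 555 members of 1q had a median of 0.09, with 0 called lower and 2 higher (backgrounds 0.804% and 0.105%). In A2058 clones without the extra 8q the median was 0.04 over 547 members, with 2 lower and 1 higher (1.49% and 0.542%). In HCT116 colon cancer clones without the extra 8q it was 0.06 over 507, with 0 and 0 (0.115% and 0.0255%). At an unadjusted edgeR p under 0.05 were 97, 69 and 25 members in that order, both directions together. The share of all genes at that threshold was not computed for these clones. These A2058 clones were compared with the same WT libraries as the 1q-loss clones. The counts of called members rose to 34 without 7p-loss clone 1, 10 and 33 without 8q-loss clones 1 and 2, and 3 and 10 without HCT116 clones 1 and 2. The HCT116 median turned to -0.06 without clone 2, and the other medians stayed above 0 without any 1 clone, from 0.02 to 0.10. Of the 34, 14 were lower and 20 higher, or 2.52% and 3.6% of members, where 3.54% and 2.42% of all genes were. Without 8q-loss clone 1 they were 7 and 3 (1.28% and 0.548%, background 2.45% and 1.08%), and without clone 2 they were 16 and 17 (2.93% and 3.11%, background 2.86% and 2.11%). For HCT116 they were 1 and 2 without clone 1 (0.197% and 0.394%, background 0.253% and 0.0598%) and 6 and 4 without clone 2 (1.18% and 0.789%, background 0.435% and 0.348%). The 114 followers had medians of 0.06, 0.01 and 0.10 there, 0, 2 and 12 of them lay in the near copy number band, and 0 were called lower in any of the 3.

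Higher expression went with steadier values. The 405 genes were ranked by mean CPM and cut into sets of 135. Near copy number in all 5 comparisons were 13.3% of the low set (median 13.4 CPM), 34.1% of the middle set (45.1 CPM) and 37.04% of the high set (129 CPM). The range of a gene's 5 values had a Pearson r of -0.36 with log2 mean CPM across the 405 genes, and the mean change r = -0.10. Low counts also carry larger errors: in A2058 the median SE was 0.13 in the low set and 0.07 in the high set. The part of this error in the lower share was not tested.

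Promoters of followers held more CpG than those of genes that were buffered or moved against copy number. Of the 114 followers 97 matched a RefSeq promoter, with 138 windows of 300 bases counted separately where a gene had several, and the median number of CpG was 25. Of the 64 genes buffered or against in at least 3 comparisons 59 matched, with 106 windows and a median of 19.5. Fewer than 10 CpG were found in 5.07% of follower windows and 28.3% of the others, beside 15.4% of the 518 windows of all shared members and 43.6% of the 35116 windows of all genes. These are descriptions with no test, since windows of 1 gene overlap.

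Both strands were searched for 5 motifs: the TATA box as TATAAA, the AP-1 motif as TGANTCA, the heat shock element as GAANNTTC, the E-box as CACGTG and the cyclic AMP element as TGACGTCA. The TATA box was found in 2 follower windows (1.45%), in 10 windows of the buffered or against genes (9.43%), in 5.99% of the windows of all shared members and in 11.5% of all windows. The AP-1 motif was found in 3.62%, 9.43%, 6.37% and 7.71% of these. In the sequences shown above, PTGS2 holds the TATA box 32 bases before its start and GAAGGTTC 23 bases before it, IER5 holds GAACATTC 226 bases before its start, and PRRC2C holds the E-box 96 bases before its start. The heat shock element occurs in 6.77%, the E-box in 7.26% and the cyclic AMP element in 1.85% of all windows. S100A11 and CEP350 hold none of the 5 in these windows, and their CpG counts are 22 and 25, beside 37 in IER5, 21 in PRRC2C and 12 in PTGS2.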

How the data were processed

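The authors deposited raw counts per gene, 1 table per library, with gene symbols, types and coordinates. The submitters' processing notes name HISAT2 2.0.5, featureCounts 1.5.0-p3 and hg38, but the A2780 tables carry GRCh37 coordinates per the file headers, so members there were placed in that build. Per the labels' protocols, poly-T beads selected the RNA. Whether counting used the strand is not given in the sources used here, and 22 of 68 named genes overlap another expressed gene.

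Each comparison was fitted on all genes of its own libraries with edgeR 4.0.16 (filterByExpr with a minimum count of 10 and a minimum total of 15, TMM scaling, quasi-likelihood F-test) in R 4.3.3. CPM are TMM-normalised. SE is the log2 fold change divided by the root of F. The joint fit held the 46 libraries and a term for each comparison's controls and loss. DESeq2 1.42.0 was an alternative. The scripts were tested on simulated data.

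The members and gene lists were chosen with earlier results of these data known. Named genes were taken by rule: the 8 genes nearest to copy number in all 5 comparisons, those buffered in all 5, the 5 with the lowest mean, those called higher in at least 2, the 5 with the largest called difference between comparisons, up to 3 per role list by mean CPM, and MDM4, MCL1 and UCK2. All other genes given by name, such as HIST2H2BE, TRAF5, the genes of short counted lists and further role-list members (SETDB1, KDM5B, PRPF3, SDHC, S100A3, S100A9, S100A10, S100A13 and IKBKE), were chosen after their values were seen.

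Replicate numbers were checked for pairing by the correlation of replicate differences between controls and loss clones. It was 0.19 to 0.48 in the 4 MCF10A clones, and above 0.1 in none of MCF10A hRas. In A2780 it ran from -0.21 to 0.608, above 0.1 in some and not all pairs. A2058 has 2 such pairs, with 0.202 and 0.297. The main fits held no term for the replicate number, so their calls, SE and intervals ignore any such pairing. Counts with the replicate number as a block are given below. AGS has no replicate numbers.

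Of 461 members tested in all comparisons with GRCh38 coordinates, 21 have an ID that is not listed for A2780 and 35 were not tested members there. 19 symbols have 2 IDs, and 2 symbols are listed as dates. RefSeq promoters (GRCh38.p14) matched 352 of the 405 shared genes by symbol. Some items are withheld and not reported here.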

Additional observations from a re-analysis of the deposited data

Results flagged for a closer look

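For 2 of 96 groups of libraries tested among the named genes, 1 library lay far from the others of its group, where chance alone gives about 1 in 20. Both were AGS loss clone 11, the CO clone. ATF3 had 320.53 CPM there and 193.87 to 226.54 in the other 4 clones, and MCL1 had 543.29 CPM there and 417.06 to 443.75 in the others. Clone 11 also differed from the other AGS clones in the stretch up to 150 Mb, but ATF3 and MCL1 both lie past it. The cause of these 2 values was not tested.

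The loss effects differed between the 5 comparisons for 139 of 405 members by the test of the difference (edgeR, adjusted over all genes tested). Among those called, 5 were picked for the widest range of their 5 values, so their p-values restate that choice. The adjusted p was 0.0032025 for PTGS2, 1.7617e-11 for KIF21B, 4.548e-05 for S100A4, 2.8154e-10 for SH2D2A and 2.735e-14 for GPR137B. A2058 holds the highest of the 5 values for PTGS2, KIF21B and SH2D2A and the lowest for S100A4 and GPR137B.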

How the results depend on the processing

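Counts of called members depended on the controls more than medians did. In AGS 204 became 40 to 218 when 1 library was left out (47 with TK+ controls alone, with a median of -0.50), and the median ran from -0.55 to -0.50. In A2780 297 became 149 with TK+ controls. In MCF10A 244 became 13 to 268. In MCF10A hRas 25 became 0 to 17, 9 with no low-count filter, 143 with DESeq2, 0 with the libraries of each clone summed, and 0, 3, 46 and 5 without clones 1 to 4. The A2058 median of -0.46 was -0.48 with scaling over genes outside 1q or without clone 2, and -0.53 with 7p-loss and 8q-loss clones as controls.

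Followers in all 5 comparisons (114) were 38 with narrower bands, 77 with each comparison's own median as the expected change (62 of them among the 114), and 10 when every clone had to be in the band. Genes buffered in all 5 (2) were 0 with narrower bands or when every clone had to be in it, 1 with each comparison's own median as the expected change, 0 to 3 without 1 library, and 1 without A2780 clone 6 or MCF10A clone 4. Genes called lower in all 5 (10) were 62 with DESeq2, 91 without MCF10A hRas, 0 to 10 without 1 library, and 0, 2, 15 and 1 without MCF10A hRas clones 1 to 4. Leaving out libraries or clones for these bands was chosen after seeing the data. Members called in clones targeted at other arms (5) were 37 without A2058 7p-loss clone 1, 12 and 35 without 8q-loss clones 1 and 2, and 8 and 15 without HCT116 clones 1 and 2. Among named genes called in the main or the other run, the sign turned for C1orf21 in A2780 with TK+ controls (0.55) and for PTGS2 in MCF10A without clone 4 (-1.34). The causes of these shifts were not tested.

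With the replicate number as a block, the counts called lower were 343 in A2058 (median -0.44), 290 in A2780, 243 in MCF10A and 0 in MCF10A hRas. In A2058 the fit of the same libraries with no block also gave 343. Of 183 called values of named genes, 75 kept their call in every alternative run. Of 6086 such alternatives, 5534 left the call and the sign as they were, 484 lost a call, 66 gained one and 2 turned the sign.

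The limits are few control libraries (2 in each MCF10A comparison, 3 in AGS), clones that share their founding cell, and low members, whose errors are larger.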

Other observations

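IER5, in the buffered band in all 5 comparisons, was called lower in A2058 clones without the extra 8q, in which 1q was not the targeted arm: its log2 change there was -0.51 ± 0.08 (SE, edgeR adjusted p = 0.0132), and -0.25 in A2058 clones without the extra 7p. All of these share the WT controls of the 1q-loss comparison. S100A11 had 0.03 and -0.03 in the same clones. In HCT116 clones without the extra 8q, which have their own controls, IER5 had -0.47 ± 0.30 and S100A11 -0.59 ± 0.40 (SE), neither called by edgeR.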
